A study of Mus musculus with 6 samples.

Results

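The promoters of 7 genes that define the fat cell and its secreted hormones were examined: Pparg, Cebpa, Adipoq, Lep, Fabp4, Plin1 and Lpl. They were chosen by position, as the probes of a promoter array that lie inside 8 fixed mm9 windows, with 1 window per gene and a window each for isoform 1 and isoform 2 of Pparg. The windows themselves rest on position and not on a measured value, but the genes were picked with earlier results of these data known. All 8 windows held probes, 63 in total among 174276 probes used, and none of the 63 was marked as an outlier. Neighboring probes were joined into a region when the starts were no further than 500 bp from each other. Regions with at least 3 probes were tested, which gave 9 regions for these genes among 22584 on the array. The Fabp4 window held 2 such regions because of a gap between its probes. In the Pparg isoform 1 window 5 probes formed a region, and the other 2 formed a run that was described by single probes only.

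DNA came from adipose tissue of female C57BL/6J mice at 32 weeks of age, with 3 LC mice and 3 CC mice. The dams of LC mice ate a low chromium diet through gestation and lactation, the dams of CC mice ate the control diet, and the offspring of both groups ate the control diet after weaning. Each mouse had 1 array, with DNA pulled down by an antibody against methylated cytosine (MeDIP) in Cy5 and untreated input DNA of the same mouse in Cy3. The fat depot was not given in the sources used here, and whole tissue holds other cells besides adipocytes, so that a change in methylation within a cell and a change in the mix of cells cannot be told apart. Since only DNA was measured, the adipocyte identity of the tissue could not be checked against marker RNA.

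Methyl groups on the cytosine of CpG dinucleotides mark promoters that are mostly silent, while promoters dense in CpG, called CpG islands, are usually free of methylation in normal tissue. Adipocyte formation is driven by PPARγ and C/EBPα, 2 transcription factors that maintain each other's expression and switch on the genes for lipid uptake, lipid storage and adipokines. Pparg has alternative promoters. The downstream one makes isoform 2, which is largely restricted to fat, and the upstream one makes isoform 1, which is found in more tissues.

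The number of CpGs bears on the values, because the antibody pulls down fragments by their methylated CpGs. The DNA was sheared into fragments that can be longer than the sequences counted below, so CpGs outside those sequences bear on the values too. For 5 of the 7 genes the RefSeq promoter table on GRCm38.p6 held the sequence from 250 bases before to 50 bases after the annotated start, with 3 entries for Pparg and none used here for Fabp4 and Lpl. Sequences are shown for both ends of the Pparg locus, for Cebpa and for the adipokine genes, to set CpG-dense against CpG-poor promoters. Every CpG is in capitals, and each sequence runs 5′ to 3′ on the plus strand, which is the coding strand of these genes.
Pparg first promoter, chr6:115360894-115361193: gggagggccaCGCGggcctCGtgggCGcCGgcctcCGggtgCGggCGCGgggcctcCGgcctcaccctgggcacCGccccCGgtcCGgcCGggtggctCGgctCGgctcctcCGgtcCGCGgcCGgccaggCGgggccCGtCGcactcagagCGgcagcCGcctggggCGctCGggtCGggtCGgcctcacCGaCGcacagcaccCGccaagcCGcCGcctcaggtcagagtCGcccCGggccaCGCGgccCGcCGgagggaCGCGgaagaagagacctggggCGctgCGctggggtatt
Pparg last promoter, chr6:115421816-115422115: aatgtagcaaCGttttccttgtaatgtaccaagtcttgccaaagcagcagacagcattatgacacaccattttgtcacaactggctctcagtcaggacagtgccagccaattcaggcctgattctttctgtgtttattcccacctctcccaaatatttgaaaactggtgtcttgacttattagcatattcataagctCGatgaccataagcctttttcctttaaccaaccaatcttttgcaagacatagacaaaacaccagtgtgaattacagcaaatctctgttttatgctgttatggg
Cebpa promoter, chr7:35119043-35119342: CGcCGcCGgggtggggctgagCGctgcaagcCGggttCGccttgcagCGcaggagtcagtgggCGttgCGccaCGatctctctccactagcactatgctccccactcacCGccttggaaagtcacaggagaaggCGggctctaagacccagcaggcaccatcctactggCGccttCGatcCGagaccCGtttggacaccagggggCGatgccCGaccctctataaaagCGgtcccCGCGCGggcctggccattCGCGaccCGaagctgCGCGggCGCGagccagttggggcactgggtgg
Lep promoter, chr6:29059971-29060270: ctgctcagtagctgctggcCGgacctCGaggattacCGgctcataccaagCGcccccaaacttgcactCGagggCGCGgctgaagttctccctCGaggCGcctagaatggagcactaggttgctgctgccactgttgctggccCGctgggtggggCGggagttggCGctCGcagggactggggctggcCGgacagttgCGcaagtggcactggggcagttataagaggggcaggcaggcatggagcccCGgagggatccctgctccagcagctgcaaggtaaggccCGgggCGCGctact
Adipoq promoter, chr16:23146286-23146585: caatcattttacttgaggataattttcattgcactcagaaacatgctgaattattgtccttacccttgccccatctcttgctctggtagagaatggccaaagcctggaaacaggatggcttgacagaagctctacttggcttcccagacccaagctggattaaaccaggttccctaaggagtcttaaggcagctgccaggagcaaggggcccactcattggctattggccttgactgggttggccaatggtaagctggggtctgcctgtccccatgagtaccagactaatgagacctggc

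The first Pparg promoter held 44 CpGs in 300 bases, the Cebpa promoter 29 and the Lep promoter 19. Across all 32851 promoters of the table the median was 7 CpGs, and 2.25%, 12.9% and 28.1% of them held at least 44, 29 and 19. The last Pparg promoter held 2 CpGs and the Adipoq promoter none, with the motif CG counted on 1 strand because it reads the same on both. The Plin1 promoter, which is on the minus strand, also held 2, and 23.3% of all promoters held 2 or fewer. The second Pparg entry, 1205 bp downstream of the first, held 13. The first and last Pparg entries lie 60922 bp apart in GRCm38.p6, and the first probes of the Pparg windows lie 60883 bp apart in mm9. All 7 genes are on the same chromosome in both builds, and no coordinate was converted between them.

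The level of a region was taken as the mean over its probes of log2(MeDIP/input), with the median of all probes of an array set to 0. A value above 0 means that the MeDIP signal relative to input was higher than at the typical promoter probe. It can come from a low input signal, and it depends on CpG density as well as on methylation. The order of levels is therefore an order of enrichment and not of the methylated share of CpGs, and different probes also bind DNA differently. Levels also fell with probe length over the whole array, from a mean of 0.30 over probes of 45 bases to -1.15 over those of 60 bases.

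The Pparg isoform 1 region had the highest level of the 9 regions, and Lpl the lowest. That rank is of the 5 joined probes and not of the whole window, as the 500 bp rule left 2 upstream probes out. With those 2 averaged in, the Pparg isoform 1 window lies below Lep, Cebpa and Plin1, so the top rank depends on that rule. Those 2 probes were lower, at -1.36 and -0.31 in LC and at -1.58 and -0.43 in CC on the mean. On the mean of all 6 arrays Pparg isoform 1 was at 0.96, above 98.2% of all regions of the array, followed by Lep at 0.65 (above 93.3%), Cebpa at 0.51 (above 88.6%) and Plin1 at 0.47 (above 87.1%). Pparg isoform 2 was in the middle at 0.07. The first Fabp4 region was at -0.28, Adipoq at -0.38, the second Fabp4 region at -0.65 and Lpl at -1.75, above only 3.38% of all regions. The median over the 9 regions was 0.07, and over all regions it was -0.15. Among the genes with a promoter sequence, those with the most CpGs (Pparg isoform 1, Lep and Cebpa) had the highest levels, and Adipoq, with no CpG in its 300 bases, had the lowest. For Pparg isoform 1 this holds for the 5 joined probes only. The order did not follow the CpG count throughout. Plin1 with 2 CpGs was close to Cebpa with 29, and Lep with 19 was above Cebpa. Mean probe length was 45.2 bases at Pparg isoform 1, 45.75 at Lep and 45.5 at Cebpa. At the other regions it was 51 to 57.7 bases, and its part in the order was not tested.

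Neighbors in this order were compared within each array as a description, since the order was taken from the same arrays and sets different probes side by side. In 6 of the 8 pairs the higher region was higher on 6 of 6 arrays. Cebpa and Plin1 did not differ beyond their spread, at 0.04 ± 0.12 (SD, n = 6), with Cebpa higher on 3 of 6 arrays. The same held for the first Fabp4 region and Adipoq, at 0.10 ± 0.13 (SD, n = 6), with Fabp4 higher on 4 of 6 arrays. The Lpl level, and in part those of Fabp4, Adipoq, Pparg isoform 2 and Plin1, were limited by background. The MeDIP signal was well above background on no array at 6 of the 8 Lpl probes and 3 of the 7 Fabp4 probes. The same held at 3 of the 9 Adipoq, 3 of the 8 Pparg isoform 2 and 2 of the 8 Plin1 probes. At Plin1 the MeDIP channel alone was below the array median on all 6 arrays (-1.08 to -1.14), and the input channel was lower still (-1.44 to -1.67). Pparg isoform 2 was also below that median in the MeDIP channel on every array. Pparg isoform 1, Lep and Cebpa were above it on every array.

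**Figure D1:**
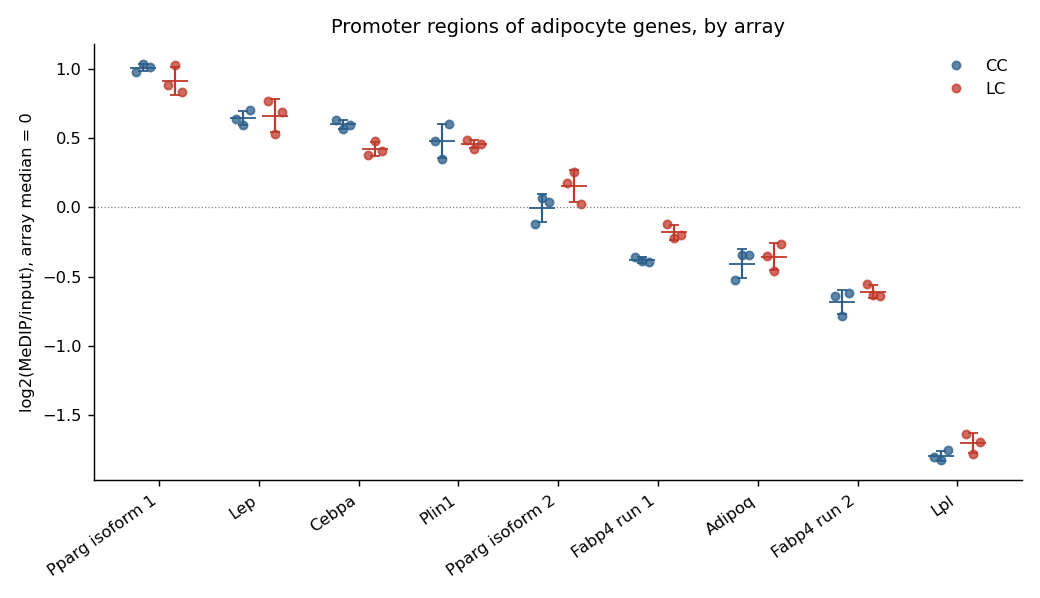
Mean log2(MeDIP/input) of each of the 9 promoter regions on each array (vertical axis, log2 units, median of the array at 0), ordered from high to low, with the first and second Fabp4 regions named run 1 and run 2. Points are the 3 CC arrays (blue) and the 3 LC arrays (red), and bars are the mean ± SD. Pparg isoform 1 is at the top near 0.96 and Lpl at the bottom near -1.75, and only Cebpa and the first Fabp4 region have CC and LC points that do not overlap.

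The question behind the comparison of LC with CC mice was whether the maternal diet left a mark on DNA methylation in the fat of adult offspring. In the 9 regions, Cebpa was lower in LC and the first Fabp4 region was higher in LC at a limma adjusted p under 0.05, and neither Pparg region, nor Lep, Adipoq, Plin1, Lpl or the second Fabp4 region passed. Of the 9 regions 1 was called lower and 1 higher, while 8.84% and 10.2% of all regions were called lower and higher, so that the share among these genes was close to that of the array. In the 2 called regions the LC and CC arrays did not overlap, and in the other 7 they did. Over all regions, all LC arrays were below all CC arrays in 20.5% and above them in 24.1%. The median LC minus CC difference was 0.05 over the 9 regions and 0.02 over all regions, and 3 of the 9 differences were below 0, against 46.2% of all regions.

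**Figure D2:**
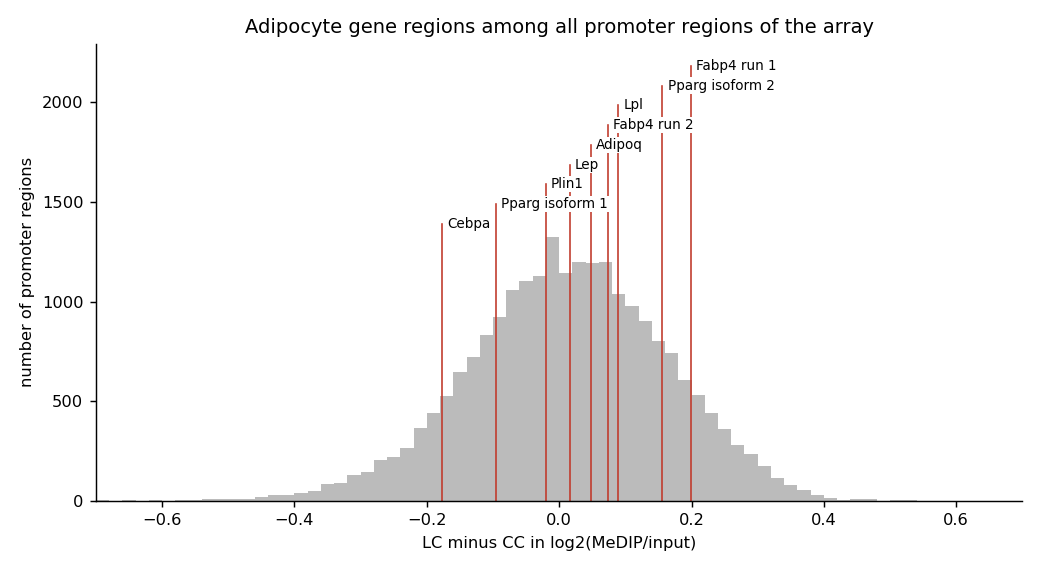
Distribution of the LC minus CC difference in log2(MeDIP/input) over all 22584 promoter regions (gray bars, number of regions), with a red line at the difference of each of the 9 regions. The lines run from -0.18 (Cebpa) to 0.20 (first Fabp4 region) and lie inside the bulk of the gray distribution.

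Among the transcription factors, the Cebpa region (chr7:35903012-35904644, 8 probes) stood at 0.38, 0.48 and 0.40 on the LC arrays and at 0.63, 0.56 and 0.60 on the CC arrays. All LC arrays were below all CC arrays. The LC mean was 0.42 ± 0.05 (SD, n = 3) and the CC mean 0.60 ± 0.03 (SD, n = 3), giving LC minus CC of -0.18 with a standard error of 0.05 (limma adjusted p = 0.0355). Taken within each scan day, which held 1 array of each group, the difference was -0.25, -0.09 and -0.19. The difference was -0.09 with the authors' values and -0.07 with normexp background correction, and neither passed (limma adjusted p = 0.126 and 0.322). The call was lost when any array other than LC replicate 2 was left out, with limma adjusted p-values of 0.0638 without LC replicate 1, 0.0716 without LC replicate 3, and 0.130, 0.0714 and 0.102 without CC replicates 1, 2 and 3. It was also lost with the replicate number, and so the scan day, as a block (limma adjusted p = 0.0719). The same held with the slide, inferred from a shared scan time, as a block (-0.17, limma adjusted p = 0.233).

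Of the 8 Cebpa probes 6 were lower in LC on the mean, and in 5 of them the groups did not overlap. Over the whole array 17.7% of probes had all LC arrays below all CC arrays. The sixth and seventh probes had the largest differences. The sixth (chr7:35904038-35904082) was at -0.17, 0.10 and 0.02 on the LC arrays and at 0.52, 0.61 and 0.51 on the CC arrays. It was the only one of the 63 probes called by limma (difference -0.57, standard error 0.10, adjusted p = 0.0350), where 4.29% of all probes were called lower and 1.75% higher. The seventh (chr7:35904250-35904294) differed by -0.42 (standard error 0.14, limma adjusted p = 0.0831). The first 4 probes of the region differed by -0.09 to 0.04.

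The Pparg isoform 1 region (chr6:115310799-115311661, 5 probes) was at 0.88, 1.03 and 0.83 on the LC arrays and at 0.98, 1.03 and 1.01 on the CC arrays. LC replicate 2 lay among the CC arrays, and the other LC arrays lay below them. LC minus CC was -0.10 with a standard error of 0.06 (limma adjusted p = 0.245). Within the region 3 probes were near 1.5 or above and stood in the same place in both groups, while probe 4 of the window (chr6:115311017-115311061) was at -0.16, 0.05 and -0.69 on the LC arrays and at 0.29, 0.33 and 0.32 on the CC arrays. That probe had the most negative difference of all 63 (-0.58, standard error 0.17), and it did not pass (limma adjusted p = 0.0722). Of the 2 probes upstream, the first was at -1.36 in LC and -1.58 in CC on the mean, with a MeDIP signal well above background on no array. The second, well above background on all 6 arrays, was at -0.31 in LC and -0.43 in CC, near the last probe of the region (-0.32 and -0.49). With all 7 probes of the window averaged, the difference was -0.02 (limma adjusted p = 0.796).

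The Pparg isoform 2 region (chr6:115370831-115372420, 8 probes) was at 0.18, 0.25 and 0.03 on the LC arrays and at -0.12, 0.07 and 0.04 on the CC arrays. LC replicate 3 was below CC replicates 2 and 3, so that the groups overlapped. LC minus CC was 0.16 with a standard error of 0.07 (limma adjusted p = 0.132). The probe with the largest difference (0.48) was not well above background in either channel on any array and has no measurable level. The last probe of the region (chr6:115372361-115372420) was higher in LC by 0.45 (standard error 0.12, limma adjusted p = 0.0597), but its MeDIP signal was not well above background on any array, so that its level is limited by background. The groups did not overlap at 3 of the 8 probes, where LC was above CC each time, and 20.7% of all probes of the array had all LC arrays above all CC arrays. Those 3 included the first and the last probe of the region, and the MeDIP signal of the first was also well above background on no array. The third was the fifth probe (chr6:115371746-115371796), which was well above background in both channels on all 6 arrays. It differed by 0.30 (standard error 0.12, limma adjusted p = 0.130).

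**Figure D3:**
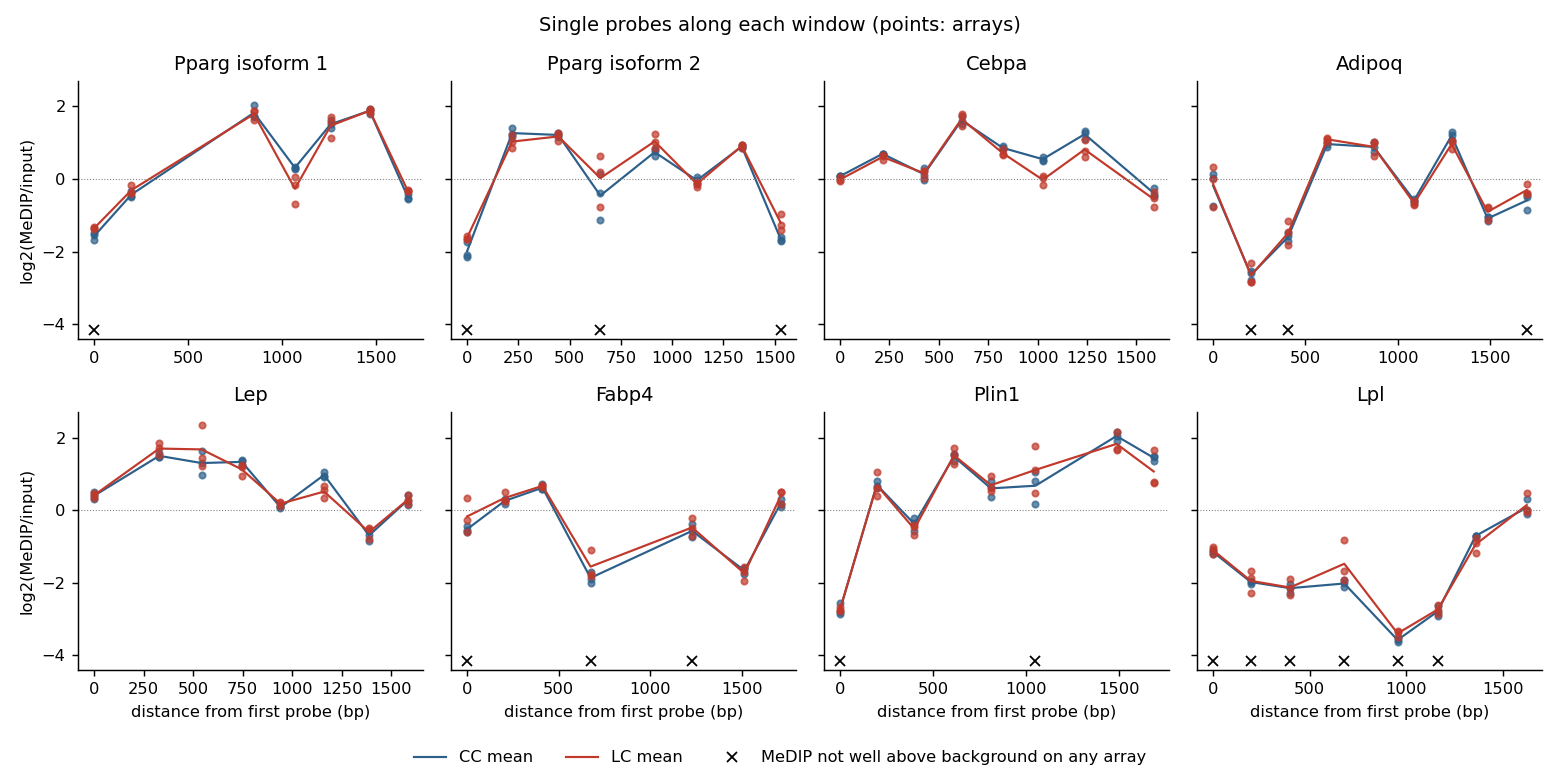
log2(MeDIP/input) of each probe along the 8 windows (vertical axis, log2 units; horizontal axis, distance in bp from the first probe of the window in the direction of increasing mm9 position). Lines are the group means, points the single arrays (CC blue, LC red), and crosses mark probes whose MeDIP signal was not well above background on any array. The profiles of both groups follow each other closely, apart from single probes such as the sixth Cebpa probe (difference -0.57), and 6 of the 8 Lpl probes carry a cross.

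Of the adipokines, adiponectin (Adipoq) is a hormone made by adipocytes that improves insulin sensitivity. Its region (chr16:23145313-23147056, 9 probes) was at -0.35, -0.46 and -0.27 on the LC arrays and at -0.52, -0.35 and -0.35 on the CC arrays. The groups overlapped, and LC minus CC of 0.05 was below its standard error of 0.07 (limma adjusted p = 0.623). Probes within the region covered a wide range, from -2.65 to 1.08 on the mean of both groups. The largest difference was at the last probe (0.29, standard error 0.14, limma adjusted p = 0.184), whose MeDIP signal was also not well above background on any array.

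Leptin (Lep) is the hormone by which fat stores restrain food intake. Its region (chr6:29008963-29010590, 8 probes) was at 0.77, 0.53 and 0.68 on the LC arrays and at 0.64, 0.60 and 0.70 on the CC arrays. The groups overlapped, and the difference of 0.02 was smaller than its standard error of 0.06 (limma adjusted p = 0.875). All 8 Lep probes were well above background in the MeDIP channel on every array. The sixth probe (chr6:29010124-29010168) was at 0.33, 0.54 and 0.67 in LC and 1.05, 0.91 and 0.95 in CC. The groups did not overlap there, and the difference of -0.46 (standard error 0.11) just missed the threshold (limma adjusted p = 0.0506). The differences of the other Lep probes reached 0.38 at probe 3, where LC replicate 1 at 2.35 was above all other arrays (0.97 to 1.62). With the median in place of the mean over probes, the Lep difference turned to -0.21 (limma adjusted p = 0.0912).

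The remaining genes act on lipid. Fabp4 encodes the fatty acid carrier of the adipocyte cytoplasm. Its first region (chr3:10208105-10208837, 4 probes) was at -0.12, -0.22 and -0.20 on the LC arrays and at -0.36, -0.39 and -0.39 on the CC arrays. All LC arrays were above all CC arrays. The LC mean was -0.18 ± 0.05 (SD, n = 3) and the CC mean -0.38 ± 0.02 (SD, n = 3), giving LC minus CC of 0.20 with a standard error of 0.05 (limma adjusted p = 0.0259). Within the scan days it was 0.23, 0.17 and 0.19. The call held without any 1 of the LC arrays and was lost without CC replicate 1, 2 or 3 (limma adjusted p = 0.0892, 0.0721 and 0.0865), with the replicate number as a block (adjusted p = 0.0542) and with the slide as a block (adjusted p = 0.174). The difference itself shrank to 0.015 with the authors' values, 0.049 with normexp background correction and 0.053 with loess normalization, and did not pass in any of them (limma adjusted p = 0.809, 0.396 and 0.509).

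The Fabp4 difference came from 2 of the 4 probes. Probes 1 and 4, each 60 bases long, differed by 0.35 (standard error 0.21) and 0.31 (standard error 0.19). Their MeDIP signal was not well above background on any array and their input signal was well above it on 4 of the 6 arrays, so that both the level and the difference are limited by background there. Probes 2 and 3, 45 bases long and well above background in both channels on every array, differed by 0.08 and 0.05, each less than its standard error of 0.11 and 0.09. The second Fabp4 region (chr3:10209332-10209874, 3 probes) was at -0.55, -0.63 and -0.64 in LC and at -0.64, -0.78 and -0.62 in CC. The groups overlapped, with a difference of 0.07 (standard error 0.06, limma adjusted p = 0.358). With all 7 probes of the window averaged, Fabp4 did not pass (difference 0.14, limma adjusted p = 0.0622).

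Plin1 encodes perilipin 1, which coats the lipid droplet and guards it against lipases. Its region (chr7:86877174-86878916, 8 probes) was at 0.48, 0.42 and 0.46 in LC and at 0.48, 0.35 and 0.60 in CC. The LC arrays lay inside the range of the CC arrays, and LC minus CC was -0.02 with a standard error of 0.06 (limma adjusted p = 0.832). Its probes ran from -2.73 to 1.93 on the mean of both groups. The largest difference, 0.44 at the sixth probe (standard error 0.32, limma adjusted p = 0.370), was at a probe well above background on 1 array in the input channel and on none in the MeDIP channel. After loess normalization the Plin1 difference was -0.24 and passed (limma adjusted p = 0.0458), the 1 setting in which it did.

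Lpl encodes lipoprotein lipase, which releases fatty acids from circulating triglyceride. Its region (chr8:71403166-71404836, 8 probes) was at -1.63, -1.78 and -1.69 in LC and at -1.80, -1.82 and -1.75 in CC. LC replicate 2 lay among the CC arrays. LC minus CC was 0.09 with a standard error of 0.05 (limma adjusted p = 0.230). At 6 of the 8 probes the MeDIP signal was not well above background on any array, while the input signal was well above it on all arrays at 7 of the 8 probes, so that the low Lpl level is limited by background in the MeDIP channel. Levels rose toward the end of the window, from -3.49 at the fifth probe to 0.10 at the eighth on the mean of both groups. The largest difference was at probe 4 (0.54, standard error 0.25, limma adjusted p = 0.174), where LC replicate 1 was at -0.82 and the other 5 arrays between -1.68 and -2.13.

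Over all 63 probes the groups did not overlap at 10 with LC below and at 9 with LC above, where 17.7% and 20.7% of all probes of the array did so. The MeDIP signal was well above background on all arrays at 41 of the 63 probes (65.1%, against 74.2% of all probes) and on none at 18 (28.6%, against 22.7%).

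The ratio is made of 2 channels, and these were also tested alone, each centered on its own median, so the ratio's difference is not their exact sum. At Cebpa the input channel was higher in LC by 0.14 (standard error 0.04, limma adjusted p = 0.0478) and the MeDIP channel was lower by 0.07 (difference -0.07, standard error 0.03, adjusted p = 0.475). At the first Fabp4 region the input channel was lower in LC (difference -0.22, standard error 0.05, limma adjusted p = 0.0173). The MeDIP channel there was also lower, by a smaller amount (-0.06, standard error 0.03, adjusted p = 0.535), which is opposite to the direction of the ratio. In the input channel 1 of the 9 regions was called lower and 1 higher by limma, and 7.29% and 13.1% of all regions were. In the MeDIP channel alone none of the 9 was called, although 4 had an unadjusted p under 0.05, and of all regions 0.0133% were called lower and 0% higher, with 9.32% at an unadjusted p under 0.05. The input difference was larger in size than the MeDIP difference in 6 of the 9 regions and in 84.0% of all regions.

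**Figure D4:**
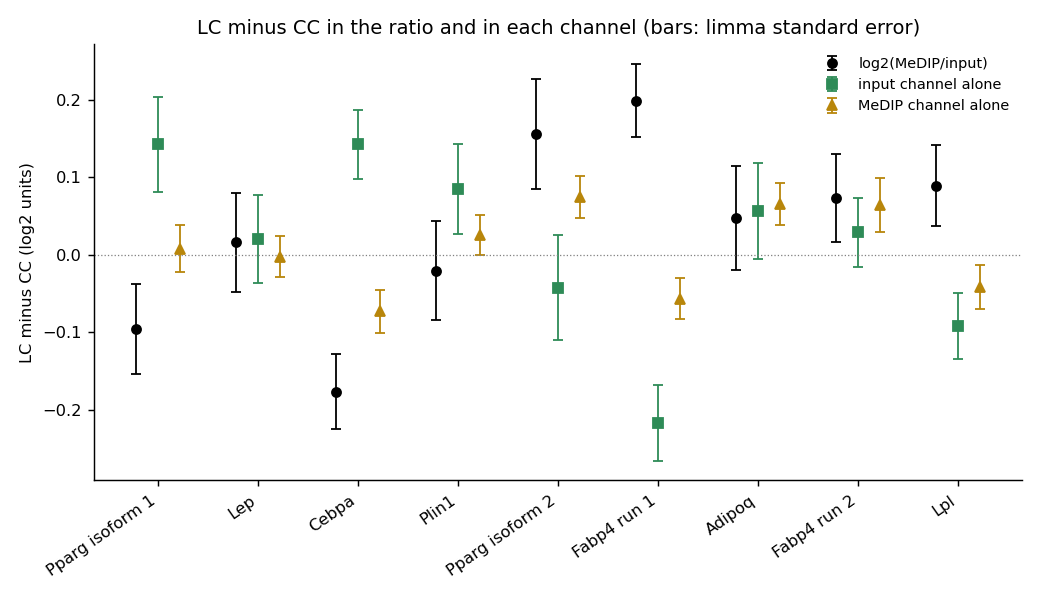
LC minus CC difference of each of the 9 regions (vertical axis, log2 units) in log2(MeDIP/input) (black circles), in the input channel alone (green squares) and in the MeDIP channel alone (gold triangles). Bars are limma standard errors with 3 arrays per group, and regions are ordered as in the plot of levels. At Cebpa (ratio -0.18, input 0.14) and at the first Fabp4 region (ratio 0.20, input -0.22) the input channel lies on the opposite side of 0 from the ratio.

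The input channel was dimmer on the LC arrays, with a median signal above local background of 105.25 to 169 intensity units against 239.5 to 333.5 on the CC arrays, and the LC arrays were all in position 1 of their slide and the CC arrays all in position 3, so that group and position cannot be told apart. The part of this brightness in the 2 calls was not tested. The limma p-values set each difference against the spread between 3 mice per group, each with 1 array. Within limma that spread was drawn toward the spread typical of all regions or probes. These p-values do not separate group from slide position.

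Probe length moved with the difference between the groups across the whole array. Probes were 45 to 60 bases long, and on the mean LC minus CC was -0.14 over the 87012 probes of 45 bases, 0.04 over those of 46 bases and 0.25 over the 22936 probes of 60 bases. The genes studied here followed the same gradient. The 25 probes of 45 bases in the 8 windows had a mean difference of -0.11, the 26 probes of 46 to 59 bases 0.06 and the 12 probes of 60 bases 0.24. Of the 12 longest probes 11 had a difference above 0, and 9 had no array with a MeDIP signal well above background, as did 72.7% of all probes of that length. The Cebpa region had 7 probes of 45 bases among 8, and the first Fabp4 region had 2 of 45 and 2 of 60 bases.

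With the mean of each probe length removed within each array, neither region was called. The Cebpa difference became -0.08 (limma adjusted p = 0.286) and that of the first Fabp4 region 0.14 (limma adjusted p = 0.0944). The Pparg isoform 1 difference became 0.0023 (limma adjusted p = 0.983) and the Pparg isoform 2 difference 0.02 (limma adjusted p = 0.875).

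**Figure D5:**
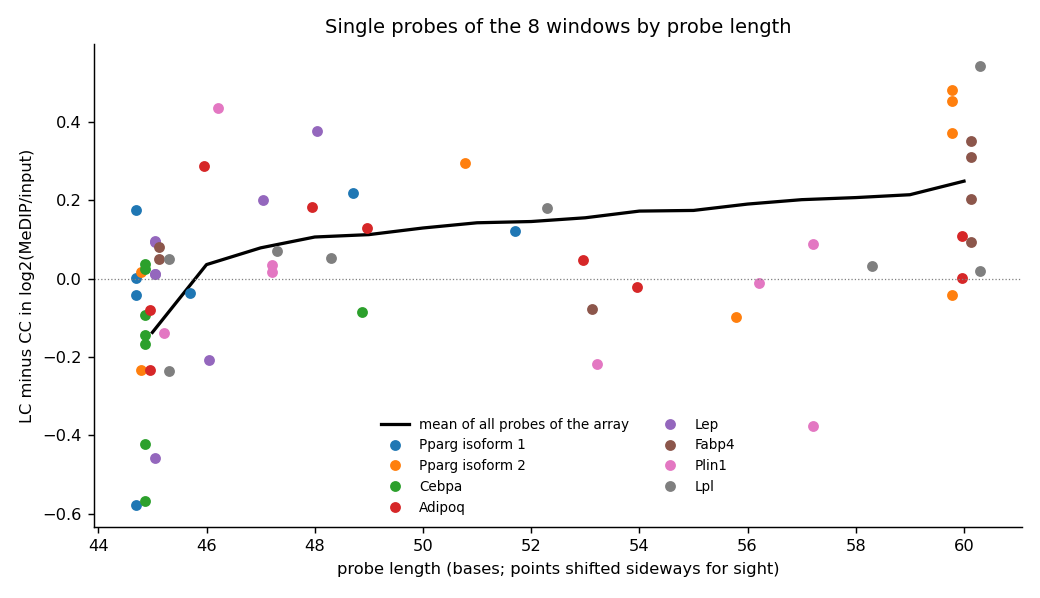
LC minus CC difference in log2(MeDIP/input) of each of the 63 probes (vertical axis) by probe length in bases (horizontal axis, points of a window shifted slightly sideways), colored by window, with the mean of all probes of the array at each length as a black line. The black line climbs from -0.14 at 45 bases to 0.25 at 60 bases, and 11 of the 12 probes of 60 bases lie above 0.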

How the data were processed

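The authors deposited Agilent Feature Extraction 11.0.1.1 output for each array, with positions in mm9 and no gene names. The deposited intensity of each dye is given raw and as a processed signal, which was background-subtracted, spatially detrended and scaled by 1 linear factor per dye. The log10 ratio that the authors deposited (Cy5 over Cy3) served only as a check of direction (correlation of 0.999 or more with the ratio used). The authors' own log2 values, of unnamed normalization, had medians of 0.02 to 0.03 per array and correlated positively with the scanner values, at 0.866 to 0.885 for LC and 0.900 to 0.905 for CC. Their direction is thus the same, while their scale, their centering and what else was done to them are not known. Deposited flags of 0 or 1, without a scale, marked outliers, saturation and signals well above background.

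Control features (5827) and probes marked as outliers on any array (362 of 174638) were left out, and log2(MeDIP/input) of the processed signals was centered on each array's median, without loess or quantile normalization, since many promoters may shift one way. Region means were compared in R 4.3.3 by limma 3.58.1 (functions lmFit and eBayes), as LC minus CC, with p-values adjusted over all 22584 regions by the Benjamini-Hochberg method and a threshold of 0.05, and single probes over all 174276. The fit was tested on simulated data, where it recovered 171 of 200 regions given a shift of 0.5 among 22584 and called 4 unshifted ones. That shift is larger than the differences of the promoter regions studied here, which ran from -0.18 at Cebpa to 0.20 at the first Fabp4 region. Recovery of differences of that smaller size was not tested, so the simulation does not show how many of them the fit would miss. Precision is limited by the number of arrays. The methods assigned 1 pup per litter to a group, so that arrays stand for separate mice.

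The windows and lists were chosen with earlier results of these data known. The rule for naming took every gene with probes and, in each window, the probe with the largest difference; other probes named were chosen after their values were seen. Other genes of adipogenesis and lipid storage and markers of other cell types were not analysed here, because no table used here pairs mm9 positions with genes. A planned sign-flip test of the order of levels is not given, because the order came from the same arrays. Sequences are from RefSeq.

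Replicate numbers are shared by the groups and match the scan day, and for numbers 1 and 2 the slide. The slide was inferred, with arrays of the same scan time taken as 1 slide, and the position was read from the end of the array barcode. Deviations of same-numbered arrays from their group means correlated over regions at -0.16, 0.11 and -0.0008, and not every pair was over 0.1, so the numbers were not taken as pairs, and the block stands for the scan day.

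Alternatives were background correction by normexp (offset 50) on the median spot signals, the files having no mean spot signals, loess, quantile normalization, the same spread on every array, the authors' values, a filter keeping probes whose input signal was well above background on all arrays, the replicate number or the slide as a block, removal of the mean per probe length, a robust limma fit with an intensity trend, the methods' t-test, the median over probes, a gap of 1000 bp, the window mean, and each array left out in turn.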

Additional observations from a re-analysis of the deposited data

How the results depend on the processing

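The direction of LC minus CC at Cebpa and at the first Fabp4 region held in every alternative run, but the calls did not. Not every alternative could change the direction. The replicate block, the robust limma fit and the methods' t-test leave each region's difference as it was. At Cebpa the gap of 1000 bp, the window mean and the input-bright filter also kept the same 8 probes. The Cebpa difference lay between -0.25 and -0.07 and lost its call in 15 of 21 alternatives, and the first Fabp4 difference lay between 0.02 and 0.22 and lost its call in 13 of 18, the cause not being tested. The methods' t-test without adjustment is counted among those that kept the call. After Benjamini-Hochberg adjustment that t-test called neither (adjusted p = 0.120 at Cebpa and 0.118 at the first Fabp4 region). The lowest first Fabp4 values were 0.015 with the authors' values, 0.049 with normexp and 0.053 with loess. Pparg isoform 2 was above 0 in all 21 and passed in none.

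Against 1 region lower and 1 higher, 0 and 0 were called with normexp, quantile normalization, the same spread on every array, the authors' values, the slide as a block, the mean per probe length removed, the methods' t-test after Benjamini-Hochberg adjustment, and the median over probes. With loess 1 was lower, which was Plin1 (-0.24), and 0 higher. With probes bright in the input channel, where neither Fabp4 region had enough probes left, and with gaps of up to 1000 bp, 1 was lower and 0 higher. Over all 22584 regions, 1526 were lower and 4665 higher with normexp, and 2091 and 1781 with the authors' values. Quantile normalization gave 1037 and 520, the same spread 991 and 312, and the median over probes 1173 and 744. Loess gave 1439 and 704, and the removal of the length means 643 and 310. The slide block gave 0 and 0 over the whole array. Input-bright probes gave 3191 and 2409 of 22038, and gaps of up to 1000 bp 1972 and 2416 of 21988. Of single probes, against 1 lower and 0 higher, normexp called 4 and 4, the authors' values 6 and 2, the input-bright probes 3 and 1, the robust limma fit 2 and 0, and the methods' t-test without adjustment 2 and 5. Loess, the slide block, the removal of the length means and the adjusted t-test each called 0 lower and 0 higher. The share of all probes called under these alternatives is not given here, so these counts say nothing particular to these genes.

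Among regions not called, signs turned as follows. With loess Adipoq was -0.033, the second Fabp4 region -0.10 and Lpl -0.10. With the length means removed Adipoq was -0.047, the second Fabp4 region -0.15, Pparg isoform 1 0.0023 and Lpl -0.011. With the authors' values the second Fabp4 region was -0.087 and Lpl -0.065, and with normexp the second Fabp4 region was -0.037 and Lep -0.027. Lep was -0.21 with the median over probes and -0.036 with the input-bright probes. Plin1 was 0.0099 with the median over probes, 0.021 with quantile normalization, 0.024 with the same spread and 0.039 with the slide block. Lpl was -0.033 with quantile normalization and -0.078 with the same spread.

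With each array left out in turn, 0 to 1 regions were lower and 0 to 1 higher, and 0 to 3 probes were lower and 0 to 1 higher. Adipoq ranged from -0.012 to 0.098, Lep from -0.037 to 0.081, Plin1 from -0.084 to 0.040, Cebpa from -0.20 to -0.16 and the first Fabp4 region from 0.17 to 0.22. The second Fabp4 region ranged from 0.023 (without CC replicate 2) to 0.10, Pparg isoform 1 from -0.15 (without LC replicate 2) to -0.054 (without LC replicate 3), Pparg isoform 2 from 0.099 (without CC replicate 1) to 0.22 and Lpl from 0.055 (without LC replicate 1) to 0.13, none of them called. Over all regions of the array 0 were called without CC replicate 1 and 0 without CC replicate 3, where 6117 and 6884 had an unadjusted limma p under 0.05.

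With the replicate number as a block, 0 of the 9 regions were called lower and 0 higher by limma, 2 having an unadjusted p under 0.05. The differences of -0.18 at Cebpa and 0.20 at the first Fabp4 region could not change, since each block held 1 array of each group. Over all regions 0 were called under this block, and 8260 had an unadjusted limma p under 0.05. The MeDIP signal was well above background on no array at 6 of 8 Lpl, 3 of 9 Adipoq, 3 of 7 Fabp4, 3 of 8 Pparg isoform 2, 2 of 8 Plin1 and 1 of 7 Pparg isoform 1 probes, which limits those values.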
